A study of Rattus norvegicus with 8 samples.

Results

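NRF2, encoded by Nfe2l2, and its antioxidant target genes were followed in the pituitary of lactating Wistar rats. The group held 10 genes of the 26311 gene names on the array: Nfe2l2, Keap1, Hmox1, Gclc, Gclm, Txnrd1, Srxn1, Slc7a11, Osgin1 and Gpx2. They were chosen by name, as every spot outside the array's control spots that carries 1 of these names, and they had 13 of the array's 30367 probes. Exposed dams had been treated with TCDD, the prototype dioxin and a ligand of AhR, the aryl hydrocarbon receptor, and control dams had not. Each group held 4 dams, all Wistar, lactating and sampled on postpartum day 7, and whole pituitary RNA of each was hybridised to 1 single-colour Agilent array. The sources used here do not state dose, route or timing of the exposure, and p-values measure only the spread between these samples.

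The transcription factor NRF2 is kept low by KEAP1, an adaptor that hands it to a ubiquitin ligase. When electrophiles or oxidants modify KEAP1, NRF2 accumulates, pairs with a small MAF protein and binds antioxidant response elements near genes for glutathione synthesis, the thioredoxin system, haem breakdown and quinone reduction. Because NRF2 is controlled largely through its protein, its messenger RNA does not have to move with its activity. Nqo1 and several glutathione transferases are regarded as targets of both NRF2 and AhR.

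The differences between dams centred on Gpx2, Txnrd1 and Srxn1, and none of the 13 probes passed the test adjusted over all 19950 probes kept on the array. Gpx2, a glutathione peroxidase best known from gut epithelium, was 1.79-fold and 2.01-fold as high in TCDD as in control dams on its 2 probes. Txnrd1, the cytosolic thioredoxin reductase, was 1.34-fold as high on 1 of its 2 probes, the only probe of the group on which the 4 TCDD values lay above the 4 control values. Srxn1, sulfiredoxin, which restores over-oxidised peroxiredoxins, was lower in TCDD dams, at 0.760 of the control level. The transcripts of the regulator itself and of its inhibitor, Nfe2l2 and Keap1, had log2 differences of 0.08 and -0.02.

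The promoters of these 3 genes are shown because their differences were the largest of the group and because they carry matches to the core of the antioxidant response element. They run from 250 bases before the start site to 50 after it, in RefSeq on GRCr8, read along the gene's strand, and capitals mark matches to TGACNNNGC or to its variant TGAGNNNGC on either strand. The Gpx2 promoter lies at chr6:101229984-101230283 on the minus strand, that of Txnrd1 at chr7:22755855-22756154 on the minus strand, and that of Srxn1 at chr3:161064562-161064861 on the plus strand.
Gpx2: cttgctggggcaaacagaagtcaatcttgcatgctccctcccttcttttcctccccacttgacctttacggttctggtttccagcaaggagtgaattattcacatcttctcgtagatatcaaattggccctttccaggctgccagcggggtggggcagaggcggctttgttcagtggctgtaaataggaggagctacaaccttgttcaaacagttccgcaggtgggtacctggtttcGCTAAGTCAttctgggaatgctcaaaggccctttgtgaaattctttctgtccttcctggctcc
Txnrd1: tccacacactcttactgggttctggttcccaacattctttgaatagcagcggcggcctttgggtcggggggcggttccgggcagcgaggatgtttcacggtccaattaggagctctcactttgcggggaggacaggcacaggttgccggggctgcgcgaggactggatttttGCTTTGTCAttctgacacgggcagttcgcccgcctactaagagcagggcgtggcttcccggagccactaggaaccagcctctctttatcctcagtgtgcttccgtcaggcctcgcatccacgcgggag
Srxn1: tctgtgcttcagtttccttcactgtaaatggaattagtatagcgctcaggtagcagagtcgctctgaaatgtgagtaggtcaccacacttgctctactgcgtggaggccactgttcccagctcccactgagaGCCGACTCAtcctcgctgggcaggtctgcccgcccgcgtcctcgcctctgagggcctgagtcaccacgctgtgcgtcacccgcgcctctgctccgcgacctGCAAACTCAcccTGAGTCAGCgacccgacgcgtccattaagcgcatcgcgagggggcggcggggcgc

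Gpx2 had 1 match to TGACNNNGC, on the opposite strand, with its first base at -13. Txnrd1 had 1 in this promoter, at -78 on the opposite strand, and none in the promoter of its other annotated start. Srxn1 had none of the first form and 3 of the variant, at -118, -17 and -5. RefSeq promoters were found for 9 of the 10 genes, with 2 starts for Txnrd1, and Hmox1 had no entry. Gclm and Nfe2l2 each held a match to TGACNNNGC as well, at -172 and at 39, so 5 of the 10 promoters held 1 of the 2 forms. Of all 33469 promoters of the same length, 12.1% held TGACNNNGC, 17.2% held TGAGNNNGC and 27.1% held either. GCGTG, the core that AhR binds, was found in 5 of the 10 promoters and in 29.7% of all of them. These matches describe letters and not binding.

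Signals are given below as a percentage of the array's own 75th percentile of signal, so 100 stands for a spot brighter than 3 in 4 spots of its array. Levels of different probes are not set against each other, since probes differ in brightness for the same amount of RNA. Log2 differences are TCDD minus control from the fit with limma, with the standard error (SE) and 95% interval, and p-values were adjusted with Benjamini-Hochberg. The 4 TCDD arrays shared slide 2 and the 4 control arrays shared slide 1, each slide with a scan of its own, so for every value here the slide and the exposure cannot be told apart. In whole tissue, fewer cells of a type and less RNA per cell cannot be told apart either.

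AhR-induced cytochromes were read as a check on the exposure, within the limit that slide and exposure cannot be told apart. Cyp1a1 was at least 7.28-fold higher in TCDD dams (limma, adjusted p = 0.0336) and Cyp1a2 at least 2.88-fold higher (adjusted p = 0.0339), both not well above background on any control array. Both were kept through the TCDD arrays alone, so their adjusted p-values do not stand apart from the filter. The 2 calls were lost without the filter, with quantile normalization, with the deposited table, without TCDD replicate 2 and without control replicate 4, among other settings. All 8 pituitary hormone markers tested were well above background on all 8 arrays, and 0 passed the adjusted test. In TCDD dams 3 were higher and 5 lower, where 56.4% of all genes were higher. With an unadjusted p under 0.05 there was 1 higher, against 7.68% of all genes, and 1 lower, against 2.9%. Prl, Gh1 and Pomc had log2 differences between -0.08 and 0.00. Fshb was at -0.71 and Pou1f1 at 0.35, the 2 of this list with an unadjusted p under 0.05 (0.0198 and 0.0403 by limma). Both were named after their values were seen. On its other kept probe Pou1f1 was at 0.27 (unadjusted p = 0.114 by limma). Arrays were alike in brightness, with a 75th percentile of 765 to 932 and 71.1% to 73.9% of spots above background, and no spot was saturated. TCDD replicate 2 and control replicate 4 stood apart from the other 6 arrays on the first principal component, at 22.9 and 33.9 against -16.4 to 0.39. Differences of the NRF2 group that move by over 1.5 times without either array are given without it.

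Of the 13 probes, 11 were kept, meaning well above background on 4 or more of the 8 arrays, and they stood for 9 of the 10 genes. By limma, 0 of the 11 passed an adjusted p of 0.05, against 0.0451% of all probes tested (9 of 19950), of which 0.0301% were higher and 0.015% lower in TCDD dams. At an unadjusted p under 0.05, 3 of the 11 were higher in TCDD dams, against 7.58% of all probes, and 1 was lower, against 2.83%, which makes 4 of 11 in either direction, against 10.4%. The 3 higher probes come from Gpx2 and Txnrd1. On 1 probe all TCDD values lay above all control values, against 5.06% of all probes, and on 0 they lay below, against 1.82%; in either direction 6.88% of all probes had groups without overlap. The mean was higher in TCDD dams on 9 of the 11 probes, where it was on 56.5% of all probes, and with 1 probe a gene on 7 of the 9 genes, where it was on 56.4% of all genes. The median log2 difference of the 9 was 0.14, beside 0.02 over all genes.

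**Figure D1:**
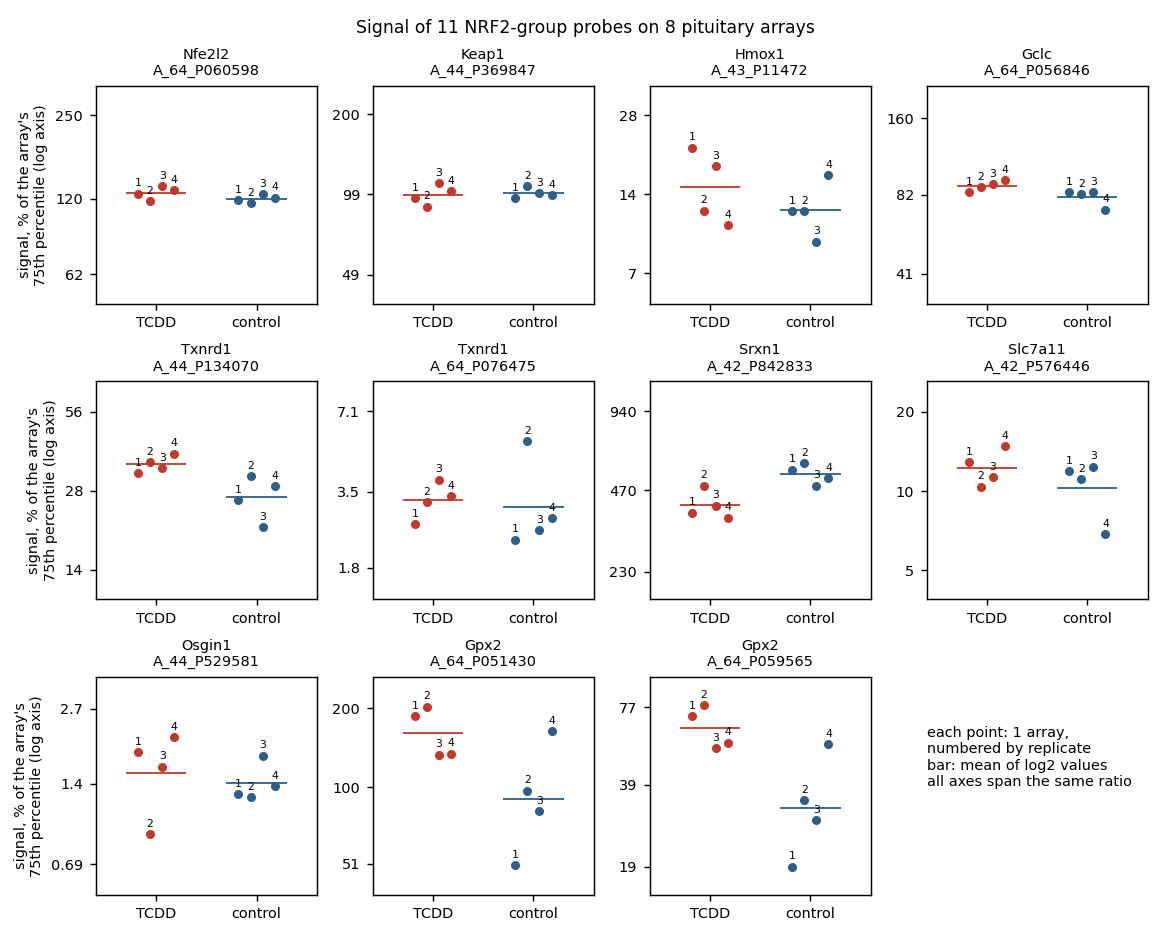
Signal of the 11 kept probes as a percentage of each array's 75th percentile (log axis; every panel spans the same ratio), TCDD arrays in red and control arrays in blue; each point is 1 array numbered by replicate and the bar is the mean of the log2 values. On probe A_44_P134070 of Txnrd1 the 4 TCDD points, 32.7 to 38.8, lie above the 4 control points, 20.4 to 31.8, and in both Gpx2 panels control replicate 4 lies above the other 3 control points.

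The regulators come first. Nfe2l2 stood at 126, 117, 134 and 129 in TCDD dams, against 119, 115, 125 and 121 in control dams. The 2 groups overlapped, with TCDD replicate 2 below 3 of the 4 control values. The log2 difference was 0.08 (SE 0.06, interval -0.07 to 0.22), with an adjusted p of 0.738 by limma and an exact two-sided permutation p of 0.171. Keap1 stood at 95.7, 89.1, 109.6 and 102 in TCDD dams, against 95.8, 106.9, 100.4 and 98.6 in control dams. Its groups lay over each other, with the highest and the lowest of the 8 values both in TCDD dams, and the log2 difference was -0.02 (SE 0.08, interval -0.20 to 0.16; adjusted p = 0.955 by limma), which turned to 0.03 without TCDD replicate 2. The highest Nfe2l2 value was 1.15 times the lowest in TCDD dams and 1.08 times in control dams. For Keap1 these ratios were 1.23 in TCDD dams and 1.11 in control dams. The intervals correspond to 0.953 to 1.17 times the control level for Nfe2l2 and 0.869 to 1.12 times for Keap1.

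Glutathione synthesis begins with glutamate-cysteine ligase, whose catalytic subunit is Gclc and whose modifier is Gclm, and needs cystine brought in by the exchanger Slc7a11. Gclc stood at 83.7, 87.3, 89.6 and 93.3 in TCDD dams, against 84.0, 82.1, 83.6 and 71.9 in control dams. The groups overlapped only through TCDD replicate 1, which lay below control replicate 1. By limma the log2 difference was 0.14 (SE 0.07, interval -0.03 to 0.31; adjusted p = 0.557 by limma; exact permutation p = 0.057). Control replicate 4 was the low value, and without it the log2 difference was 0.09.

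Gclm could not be read. Its only probe was not well above background on any of the 8 arrays, with signals of 0.24 to 0.32 in TCDD dams and 0.25 to 0.32 in control dams, and the scanner software had replaced the signal by a surrogate value on all 8. Slc7a11 had 2 probes. On A_42_P576446, printed on 10 spots per array, it stood at 12.9, 10.4, 11.3 and 14.8 in TCDD dams, against 11.9, 11.1, 12.4 and 6.86 in control dams. The groups overlapped, and control replicate 4 was again the lowest of the 8. Between groups the log2 difference was 0.25 (SE 0.20, interval -0.21 to 0.71; adjusted p = 0.734 by limma), and it was 0.05 without control replicate 4. The spots of this probe on an array had an SD of 0.03 to 0.10 on the log2 scale. The other probe, A_64_P041166, was not well above background on any array.

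The thioredoxin branch held differences of opposite sign. Txnrd1 on A_44_P134070 stood at 32.7, 36.0, 34.1 and 38.8 in TCDD dams, against 25.9, 31.8, 20.4 and 29.1 in control dams. Each TCDD value lay above each control value, the closest being TCDD replicate 1 and control replicate 2. TCDD dams had the higher mean by 0.42 on the log2 scale (SE 0.14, interval 0.10 to 0.73; adjusted p = 0.377 and unadjusted p = 0.0152 by limma), and the exact permutation p was 0.029, the smallest that 4 against 4 arrays can give. It was 0.29 to 0.51 over 19 other settings, with an unadjusted p under 0.05 in all 19.

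The second Txnrd1 probe did not show this. A_64_P076475 stood at 2.64, 3.20, 3.89 and 3.37 in TCDD dams, against 2.30, 5.47, 2.49 and 2.78 in control dams. The probe was dim: it was well above background on all 8 arrays, where the lowest signal so measured was 1.15 to 1.53. Control replicate 2 was the highest of the 8 and the other 3 control values lay among or below the TCDD values. The log2 difference was 0.09 (SE 0.27, interval -0.53 to 0.71; adjusted p = 0.948 by limma), and it was 0.37 without control replicate 2 and 0.042 without control replicate 4. The 2 probes read the same RefSeq transcript, 1 from base 2409 and the other from base 1472 onward, so the value for Txnrd1 depends on the probe. The array's annotation placed A_44_P134070 at chr7:23055528-23055561 of rn4, which covers 34 of its 60 bases.

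Srxn1 was read by 1 probe at chr3:142462543-142462602 of rn4, plus strand. It stood at 386, 489.8, 411 and 369.6 in TCDD dams, against 563, 598, 489 and 523 in control dams. The groups met at 1 point, where TCDD replicate 2 lay just above control replicate 3. This gave a log2 difference of -0.40 (SE 0.11, interval -0.64 to -0.15; adjusted p = 0.323 and unadjusted p = 0.00542 by limma; exact permutation p = 0.057). Over the 19 other settings, which reuse the same arrays, the log2 difference lay between -0.48 and -0.34. The unadjusted p by limma was under 0.05 in all of them, and the lowest adjusted p was 0.182, with array weights. TCDD replicate 2 was the array that brought the groups together, and without it the log2 difference was -0.48.

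Gpx2 had the greatest difference of the group on each of its 2 probes. On A_64_P051430 it stood at 187, 202, 133 and 134 in TCDD dams, against 50.6, 97.0, 81.3 and 163 in control dams. On A_64_P059565 it stood at 70.9, 78.5, 53.7 and 56.4 in TCDD dams, against 19.0, 34.1, 28.7 and 55.6 in control dams. On both probes 3 control arrays lay below every TCDD array, and control replicate 4 lay above 2 of the 4 TCDD arrays on the first probe and above 1 on the second. The log2 differences were 0.84 (SE 0.33, interval 0.08 to 1.61; adjusted p = 0.452 by limma; exact permutation p = 0.086) and 1.01 (SE 0.30, interval 0.31 to 1.70; adjusted p = 0.348 by limma; exact permutation p = 0.057).

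The highest Gpx2 value was 1.52 times the lowest in TCDD dams on the first probe and 1.46 times on the second, against 3.23 times and 2.92 times in control dams. The log2 signal of the first probe minus that of the second, within an array, was 1.25 to 1.40 in TCDD dams and 1.41 to 1.55 in control dams. The 2 probes of Gpx2 thus gave differences between groups that were unequal by 0.16 on the log2 scale, without overlap between groups in the within-array value. The control SD of the 2 probes stood at the 97.4th and 96.7th percentile of all probes. Without control replicate 4 the log2 differences were 1.13 and 1.27, with adjusted p-values of 0.226 and 0.148. Without control replicate 1, the lowest array, they were 0.57 and 0.76, and without TCDD replicate 2 the first probe was at 0.73. Over the 19 other settings the first probe had an unadjusted p under 0.05 in 13, and the second had it in all 18 settings that use it.

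The Gpx2 probe nearer the start of the transcript, A_64_P059565, begins at base 634 and lies at chr6:99372734-99372793 of rn4, minus strand. It is shown because it gave the same order of groups as the other probe, which begins at base 945, from a different stretch of the transcript. It has 1 reading frame that runs through to its last 3 bases, which are a stop codon.
Gpx2 A_64_P059565: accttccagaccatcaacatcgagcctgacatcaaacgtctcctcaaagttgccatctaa

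Control replicate 4 also stood apart in red blood cell markers, which move with Gpx2 on some arrays and not on others. The list's mean deviation from the 8-array mean was -0.01, 0.65, 0.52 and 0.51 in TCDD replicates 1 to 4, against -0.59, -0.68, -0.62 and 0.24 in control replicates 1 to 4. Gpx2 on A_64_P051430 deviated by 0.63, 0.75, 0.15 and 0.16 in TCDD dams, against -1.25, -0.31, -0.57 and 0.44 in control dams. Of the 12 markers, 6 were tested. All 6 were higher in TCDD dams with an unadjusted p under 0.05 by limma, against 7.68% of all genes, and none with an adjusted p under it. Their summed signal was 43844 to 66474 in TCDD dams and 30398 to 55104 in control dams. Over the 6 tested, log2 differences ran from 0.45 to 1.39, with a median of 0.65. Hba-a1, Hbb-b1 and Hbb, the brightest, had log2 differences of 0.53, 0.77 and 0.53, while Epb42, Ermap and Rhag were not well above background. Their part in the Gpx2 difference was not tested. Control replicate 4 stood apart in other marker lists too. Posterior lobe and neural markers had a mean deviation of -0.45 there, against 0.09, 0.38 and 0.34 in control replicates 1 to 3. In TCDD replicates 1 to 4 they were at -0.04, -0.30, 0.05 and -0.07. Stroma and pericyte markers were at -0.42 there, against 0.16, 0.13 and 0.005 in the other controls and -0.18 to 0.28 in TCDD dams. The part of these lists was not tested either.

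Hmox1, the inducible haem oxygenase that opens the haem ring, stood at 21.1, 12.1, 17.98 and 10.67 in TCDD dams, against 12.1, 12.1, 9.24 and 16.5 in control dams. High values stood in both groups and the groups overlapped over most of their range. The log2 difference was 0.28 (SE 0.25, interval -0.30 to 0.86; adjusted p = 0.759 by limma), and it was 0.12 without TCDD replicate 1, 0.44 without TCDD replicate 4 and 0.43 without control replicate 4. The 10 spots of this probe on an array had an SD of 0.05 to 0.11 on the log2 scale, which measures the precision of 1 array's value. Macrophages are a known source of Hmox1. Of 14 leukocyte and macrophage markers 11 were tested, 5 were higher and 6 lower in TCDD dams, and 0 passed the adjusted test. At an unadjusted p under 0.05 there was 1 higher, Mpo of neutrophils, at 0.73 without overlap, against 7.68% of all genes, and 1 lower, Csf1r of macrophages, at -0.30, against 2.9%, both named after their values were seen. The summed signal of the list was 962 to 1646 in TCDD dams and 830 to 1511 in control dams, and Cd163 and Cd3e were not well above background. Their part in the Hmox1 values was not tested.

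Osgin1, an oxidative stress-induced growth inhibitor, lay near background. It stood at 1.85, 0.90, 1.63 and 2.10 in TCDD dams, against 1.28, 1.24, 1.79 and 1.37 in control dams, and was well above background on 3 TCDD arrays and 1 control array. TCDD replicate 2 was the lowest of the 8 and replicate 4 of the same group the highest. The log2 difference was 0.13 (SE 0.26, interval -0.46 to 0.73; adjusted p = 0.906 by limma), and its sign depended on the setting. It passed the filter mainly through TCDD arrays, and without TCDD replicate 2 the value was 0.39.

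**Figure D2:**
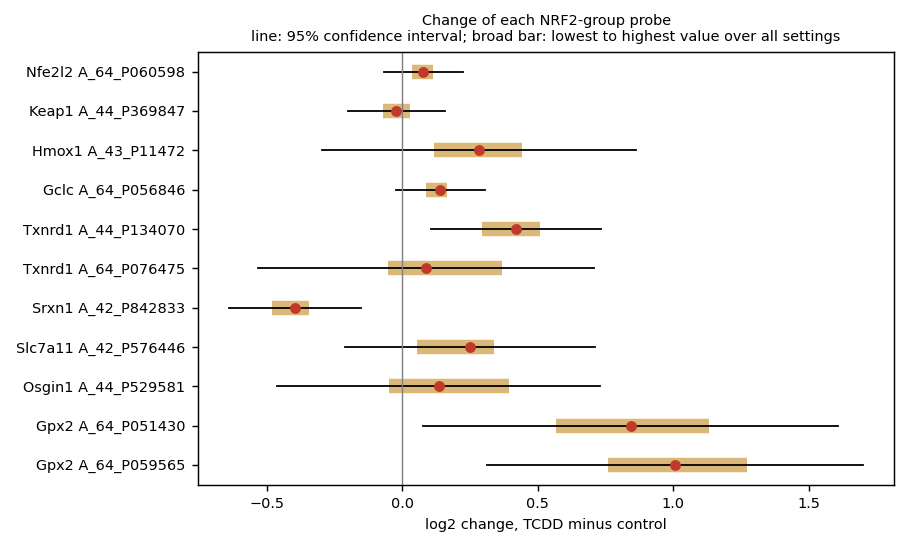
Log2 difference of each kept probe, TCDD minus control (x axis; point), with its 95% confidence interval (line) and the lowest and highest value over the other processing settings and arrays left out (broad bar). The intervals of Gpx2, of Srxn1 and of probe A_44_P134070 of Txnrd1 lie off 0, and the settings cross 0 for Keap1, Osgin1 and probe A_64_P076475 of Txnrd1.

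Across arrays the genes did not move as a block. With 1 probe a gene, the number of the 9 genes above their own 8-array mean was 6, 4, 8 and 7 in TCDD replicates 1 to 4, against 2, 3, 5 and 3 in control replicates 1 to 4. TCDD replicate 4 held the highest value for 4 of the 9 genes and the lowest for 1, and control replicate 4 held the lowest for 2. TCDD replicate 2 was mixed, with the highest value for 1 gene and the lowest for 2. Gpx2 and Hmox1 were high together in TCDD replicate 1, at 0.63 and 0.64 above their means, and apart in TCDD replicate 2, at 0.75 and -0.15.

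**Figure D3:**
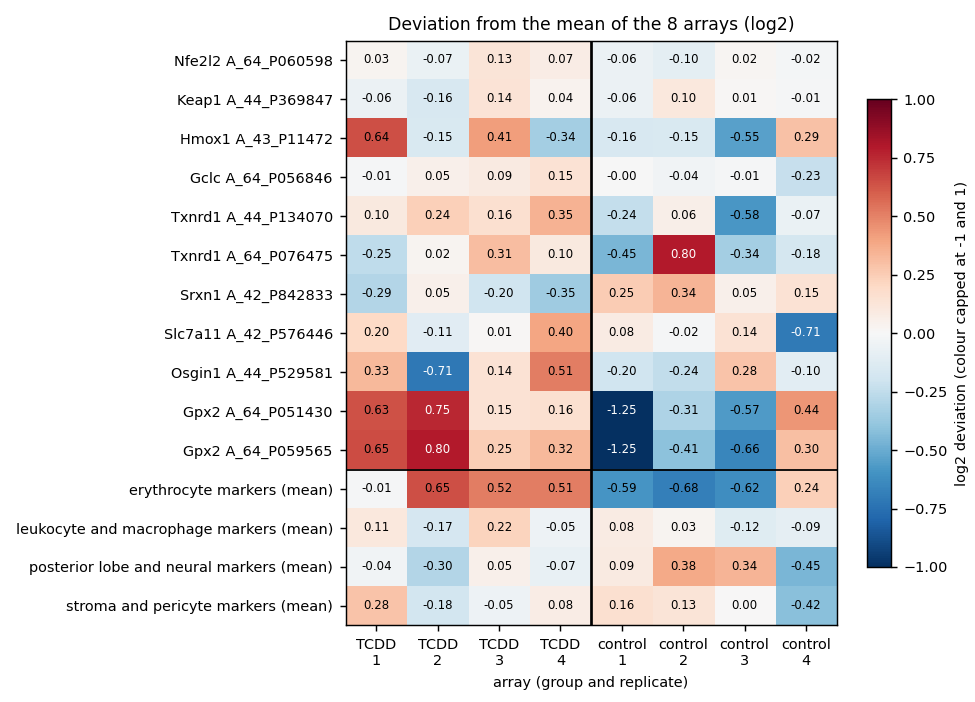
Log2 deviation of each kept probe from its mean over the 8 arrays, TCDD arrays on the left and control arrays on the right of the line, with the mean deviation of 4 marker lists below (red above, blue below the mean; the colour is capped). Both Gpx2 rows are at -1.25 in control replicate 1 and above 0 in control replicate 4, and Slc7a11 is at -0.71 in control replicate 4.

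Among genes that act with NRF2, 2 had an unadjusted p under 0.05 and both were lower in TCDD dams. Of 14 partners and regulators 12 were tested, 6 higher and 6 lower in TCDD dams, with a median log2 difference of 0.00. By limma 0 passed the adjusted test, and at an unadjusted p under 0.05 there were 0 higher and 2 lower, against 7.68% and 2.9% of all genes with 1 probe each. Nfe2l1, the NRF1 factor that shares NRF2's binding sites, stood at 65.0, 55.3, 54.5 and 55.8 in TCDD dams, against 72.6, 64.7, 63.5 and 73.7 in control dams (log2 difference -0.25, adjusted p = 0.389 by limma). All but TCDD replicate 1 lay below the control values. Bach2, of the BACH repressors that compete for these sites, had a log2 difference of -0.33 (adjusted p = 0.454 by limma), while Bach1 was not well above background. Gsk3b, Maff and Syvn1, which have roles in NRF2 turnover and in its DNA-binding partner, had log2 differences of 0.11, -0.34 and -0.12, with adjusted p-values of 0.634 or more by limma. Maff lay near background, and was well above it on 2 of the 4 TCDD arrays and on all 4 control arrays.

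Among 38 other NRF2 target genes 33 were tested, 18 higher and 15 lower in TCDD dams, where 56.4% of all genes were higher, with a median of 0.03. None passed the adjusted test by limma, and at an unadjusted p under 0.05 there were 5 higher, against 7.68% of all genes, and 0 lower, against 2.9%. This balance depended on the scaling: over the 5 related lists together, the AhR-induced genes included and 92 genes tested, 16 were higher and 3 lower at an unadjusted p under 0.05, against 11 and 6 with median centring and 10 and 5 with normexp and quantile normalization. Nqo1, the quinone reductase, stood at 15.1, 15.6, 17.2 and 25.7 in TCDD dams, against 9.06, 10.1, 9.06 and 6.11 in control dams. Its groups did not overlap, with a log2 difference of 1.09 (SE 0.21; adjusted p = 0.191 by limma; exact permutation p = 0.029). Gsr, glutathione reductase, was at 0.32, the exporter Abcc3 at 0.36, the glutathione transferase Gstm1 at 0.34 and the NADPH source Idh1 at 0.24, with adjusted p-values between 0.233 and 0.477. Gstm1 has close relatives whose RNA its probe may also bind. Nqo1 also counts among AhR-induced genes, of which Ahrr was at least 1.68-fold higher (adjusted p = 0.216 by limma), Aldh3a1 had a log2 difference of 0.75 and Cyp1b1 of 0.36. Ahrr was not well above background on any control array and was kept through the TCDD arrays alone.

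Of 34 further genes for glutathione, thioredoxin and peroxide enzymes 32 were tested, 20 higher and 12 lower, a share near the 56.4% of all genes that were higher, with a median of 0.03. By limma 0 passed the adjusted test, while at an unadjusted p under 0.05 there were 5 higher, against 7.68% of all genes, and 0 lower, against 2.9%. Gpx3, the secreted glutathione peroxidase, stood at 756, 759, 799 and 879.9 in TCDD dams, against 659, 605, 593 and 654 in control dams. Every TCDD value lay above every control value, by a log2 difference of 0.35 (SE 0.07; adjusted p = 0.221 by limma). Sod3, the extracellular superoxide dismutase, stood at 339.97, 349.99, 379 and 359 in TCDD dams, against 235, 269, 289 and 190.3 in control dams, with no overlap and a log2 difference of 0.56 (SE 0.13; adjusted p = 0.249 by limma). Prdx4, Txn2 and Gpx7 had log2 differences of 0.19, 0.16 and 0.27, with adjusted p-values between 0.414 and 0.454.

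Haem synthesis and breakdown, the pathway on which Hmox1 acts, had 10 genes, all tested. Of these, 6 were higher and 4 lower, a share near the 56.4% of all genes that were higher. By limma 0 passed the adjusted test. At an unadjusted p under 0.05 there was 1 higher, Fech, against 7.68% of all genes, and 1 lower, Alad, against 2.9%. Fech, which inserts iron into the ring, had a log2 difference of 0.28 without overlap (adjusted p = 0.301 by limma). On 5.06% of all probes every TCDD value lay above every control value. Alad, an early step of synthesis, had a log2 difference of -0.18 (adjusted p = 0.437 by limma). Ppox and Urod, between these steps, were at -0.19 and 0.07. Red blood cell precursors make haem, and the erythrocyte markers given above were higher in TCDD dams; their part in the Fech value was not tested.

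**Figure D4:**
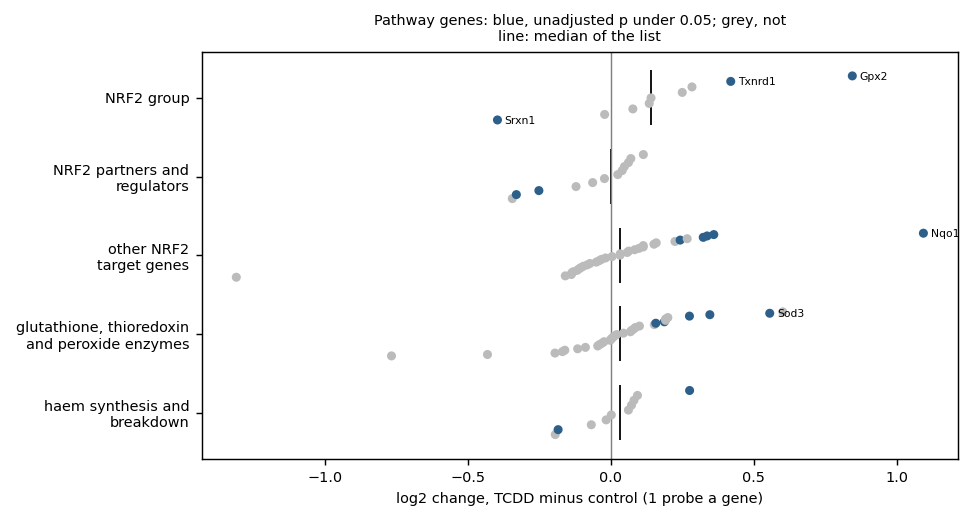
Log2 difference, TCDD minus control, of every tested gene in the NRF2 group and in 4 related lists, 1 probe a gene (x axis), each list on its own row with its median as a line; blue points had an unadjusted p under 0.05 and grey points did not. The list medians lie between 0.00 and 0.14. Nqo1 at 1.09 is the highest point and Trib3 at -1.31, a grey point, is the lowest.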

How the data were processed

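Pituitary RNA of 4 TCDD and 4 control dams was measured on 8 single-colour arrays. Per the file headers, Agilent Feature Extraction 10.7.1.1 gave each spot a processed intensity, background-subtracted with surrogate values for dim spots, and the headers name rn4 for probe coordinates. A table of intensities for the same arrays was also deposited and served as an alternative. How it was scaled is not stated in the sources used here. Its columns all had a median of 56.3 and followed the processed signal's order of probes (Spearman correlation 1). Its differences nearly equalled those with quantile normalization, such as 0.829 in both for Gpx2 A_64_P051430, so the 2 are not separate checks. Processed intensities were put on the log2 scale and the 75th percentile of the array's non-control spots was subtracted. Outlier spots were set to missing, which touched 3 of the 80 spots of Slc7a11 A_42_P576446 and no other spot of the group, and spots of a probe were averaged. A probe was kept if well above background on 4 or more of 8 arrays, which left 19950 probes. Groups were compared per probe in R 4.3.3 with limma 3.58.1 (lmFit, eBayes), two-sided, with Benjamini-Hochberg adjustment over all kept probes and a threshold of 0.05. Related lists used 1 probe a gene, the brightest. Exact permutation tests ran over 70 assignments. Where no array of 1 group measured a probe above background, its fold is a bound, given as "at least": the dim group then enters with the probe's signal or the lowest signal measured above background on that array, whichever is greater. The number of arrays limits the precision. The fit was tested on simulated data. Alternatives covered normalization, background correction, filter, outlier spots, probe summary, variance model, array weights, the deposited table, replicate number and each array left out.

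Members and lists were chosen with earlier results of these data known. All 10 genes are named with every probe; of each related list, genes past the adjusted threshold and up to 5 by smallest unadjusted p; of marker lists, the 3 brightest and those near background. A few genes these rules name are not reported here. Same-numbered samples did not deviate together (correlations -0.04, -0.08, -0.03 and -0.09), so the replicate number was not used as a block.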

Additional observations from a re-analysis of the deposited data

Results flagged for a closer look

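In 4 of 72 groups of 4 arrays among the genes described, 1 array lay far from the other 3; chance alone gives about 1 in 20. In each case the number is the array's gap to its nearest neighbour as a share of the group's range. TCDD replicate 1 was high for Nfe2l1 (0.859). Control replicate 4 was low for Gclc (0.852) and for Gstm1 (0.867) and high for Syvn1 (0.866).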

How the results depend on the processing

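In every alternative 0 probes of the NRF2 group passed the adjusted test. Over all probes 9 passed, against 1 with quantile normalization, 0 with normexp and quantile normalization, 14 with 1 probe a gene, 4 with trended and robust variance, 28 with array weights, 1 with the deposited table and 0 to 6 with 1 array left out. Among the related lists 2 genes passed, Cyp1a1 and Cyp1a2, against 0 with quantile normalization, with normexp, without a filter and with the deposited table, and 0 to 2 with 1 array left out. The filter on all 8 arrays also gave 0, which its construction fixes, since it removes both genes from the test. The share of higher calls among probes with an unadjusted p under 0.05 was 72.8%, against 48.8% with median centring, 53.7% with quantile normalization, 51.5% with normexp and 53.7% with the deposited table.

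Direction turned for 3 probes whose differences were small. Keap1 was at 0.0118 with normexp and quantile normalization, and between -0.0716 and 0.0284 with 1 array left out, above 0 without control replicate 2 (0.00847) and without TCDD replicate 2. Txnrd1 A_64_P076475 was at -0.0014 with normexp and -0.0535 with array weights, and between -0.0503 and 0.367 with 1 array left out, below 0 without control replicate 1, without control replicate 3 (-0.0114) and without TCDD replicate 3 (-0.00093). Osgin1 was at -0.0488 with normexp, and between -0.0151, without TCDD replicate 4, and 0.395 with 1 array left out. The causes were not tested. The other 8 probes kept their direction under all alternatives run.

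With the replicate number as a block, which is also the position on the slide, 0 probes of the array, 0 of the NRF2 group and 0 related genes passed the adjusted test, and at an unadjusted p under 0.05 the NRF2 group had 2 probes higher and 1 lower. Samples share only a number, so no pairing is read from it. Gclm, the second Slc7a11 probe and Osgin1 are limited by signal near background.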
